A study of Mus musculus with 22 samples.

Results

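The transcriptional response of fibroblast growth factor (FGF)-treated mouse embryonic palatal mesenchyme (MEPM) cells was compared with and without inhibition of MEK, 4 hr after the ligand was added. MEPMs are primary cells taken from the secondary palatal shelves of E13.5 mouse embryos, here wild-type C57B/6, and passaged before use. The comparison covers 5 of the 22 samples of the study. In 3 samples, cells starved of serum overnight were stimulated with 50 ng/mL FGF1 plus 1 ug/mL heparin (4 hr FGF). In 2 samples the cells were exposed to the MEK inhibitor PD325901 (PD) at 1 uM for 30 min before the same ligand and dose was added (4 hr FGF + PD). Cells of separate litters made up each set of replicates, and every group shares the starvation in low serum. The deposited table holds 23286 entries, each with a single FPKM (fragments per kilobase of transcript, scaled to the number of mapped fragments) per condition, pooled over the replicates. The 11642 entries with FPKM above 1 in at least 1 of these 2 conditions were kept. No spread between replicates can be calculated from pooled values, so every ratio below is given without a test, and the reads behind it are unknown. An entry is called lower or higher with PD when its FPKM differed by 1.5-fold or more. The solvent control for PD was not given in the sources used here.

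FGF binds receptor tyrosine kinases, which switch on Ras and, through RAF, the kinases MEK1 and MEK2. MEK phosphorylates and activates ERK1 and ERK2, and active ERK raises transcription of immediate early genes through ternary complex factors, SRF and AP-1. ERK also induces its own inhibitors, among them dual-specificity phosphatases, Sprouty and Spred proteins. In the palatal and facial mesenchyme, FGF signaling through ERK is known for its roles in proliferation, patterning and skeletal differentiation.

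Lower and higher entries were nearly equal in number, and more entries were lower than higher at 4-fold and at 8-fold. Of 11625 entries with a ratio, 1334 were lower with PD and 1342 were higher, 11.5% in either direction. Their median log2 ratio was -0.0032, and the middle 90% lay between -0.93 and 0.93. At 4-fold or more 116 entries were lower and 85 higher, and at 8-fold or more 47 were lower and 30 higher. The share of called entries depended on the level. Where the mean FPKM of both conditions was at most 2, 48.6% of 1249 entries were called, against 14.5% of 730 entries with a mean above 100. The balance of directions also differed by level. At a mean of at most 2, 334 entries were lower and 273 higher, whereas between 20 and 100, 202 were lower and 290 higher. The shares of the lists below are read against 11.5% in each direction.

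**Figure D1:**
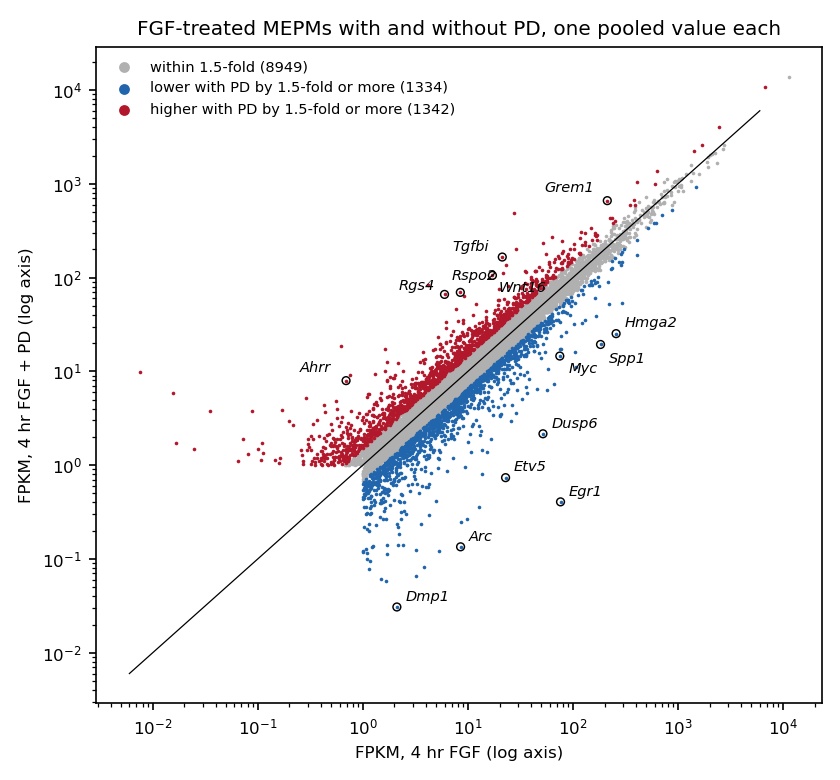
FPKM of the 11625 entries with a ratio, 4 hr FGF on the x axis and 4 hr FGF + PD on the y axis, both log axes, 1 point per entry and 1 pooled value per condition. Blue points (1334) were lower and red points (1342) higher with PD by 1.5-fold or more, and circled genes are described in the text.

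**Figure D2:**
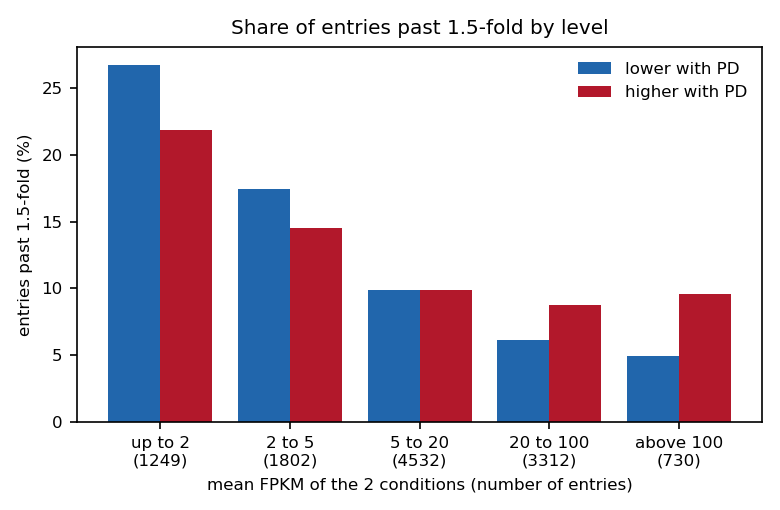
Percent of entries called lower (blue bars) and higher (red bars) with PD, by the mean FPKM of both conditions on the x axis, with the number of entries in parentheses. The bars are tallest for entries with a mean of at most 2, where 26.7% were lower and 21.9% higher, and shortest for lower entries with a mean above 100, at 4.93%.

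The cells had the expression of palatal mesenchyme. All 12 markers of that tissue were above 1 FPKM in at least 1 of the 2 conditions, though *Meox2* was below 1 with FGF + PD. Their summed FPKM was 2710 with FGF and 2746 with FGF + PD, most of it *Vim*. The other markers were counted by the same rule. Epithelial markers were above 1 FPKM in 2 of 9 cases (sum 10.8 with FGF and 5.75 with FGF + PD), endothelial markers in 2 of 6 (4.08 and 5.36) and those of blood cells in 1 of 6 (1.64 and 1.71). Skeletal muscle markers were above 1 FPKM in 3 of 8 cases (19.6 and 27.5). Neuronal and glial markers, 3 of 9 above 1 FPKM, summed to 85.0 and 151, most of it *Stmn2* and *Tubb3*. The part of these cells in any difference between the conditions was not tested, and in bulk samples fewer cells of a type and less RNA per cell cannot be told apart. At 171 of the kept entries, both ligand-alone conditions lay at least 1.5-fold beyond all 8 inhibitor conditions of the study, above them at 89 and below them at 82. They include 86 of the 1334 lower entries (6.45%) and 81 of the 1342 higher entries (6.04%), and they are pointed out below where a gene is among them.

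The phosphatases that act on ERK were split into a strongly lowered group and an unmoved group. *Dusp6*, which encodes a cytoplasmic phosphatase selective for ERK and lies on chromosome 10 of GRCm38 from 99263231 to 99267489, went from 51.8 FPKM with FGF to 2.16 with FGF + PD, 24.0-fold lower. *Dusp4*, a nuclear phosphatase gene on chromosome 8 from 34807610 to 34819894, went from 25.5 to 2.95 FPKM and was 8.64-fold lower. *Dusp5*, whose product holds ERK in the nucleus, went from 20.5 to 3.52 and was 5.82-fold lower. With PI3K inhibited in place of MEK, by LY294002 (LY) at 10 uM, these genes stood at 109, 47.8 and 35.5 FPKM, so that PD and LY left them on opposite sides of the level with FGF alone. *Dusp7* and *Dusp9*, which also encode cytoplasmic ERK phosphatases, were at 10.9 and 2.35 FPKM with FGF and at 12.5 and 3.02 with FGF + PD, within 1.5-fold. The median log2 ratio of the 5 genes was -2.54, with 3 lower and 0 higher.

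Of the inhibitors that act further upstream, on Ras, RAF and the receptors, 10 of 13 were lower and 0 were higher (median log2 ratio -1.91). *Spred2*, a membrane-bound inhibitor of Ras and RAF on chromosome 11 from 19924442 to 20024026, went from 20.1 FPKM to 3.4, and *Spred3* from 9.05 to 3.21. *Errfi1* (Mig6), an inhibitor of the EGF receptor, went from 45.4 to 6.52 and *Phlda1* from 36.7 to 5.81. Of the 31-base words in the transcript of *Phlda1*, 30.8% occur in other genes, so that some of its reads may belong elsewhere. *Spry2*, *Spred1* and *Il17rd* (Sef) were 5.08-fold, 3.76-fold and 2.51-fold lower, and *Cbl*, a ubiquitin ligase gene of receptor turnover, 1.78-fold. *Lrig1*, *Lrig3* and *Socs3* were within 1.5-fold, at log2 ratios of -0.28, -0.22 and -0.08. *Spred3*, *Spry2*, *Spred1*, *Il17rd*, *Cbl* and the *Lrig* genes were named after their values were seen, to complete the families. None of the 13 genes was 1.5-fold or more lower with FGF + LY than with FGF alone, against 12.6% of all entries in that comparison, which shares the FGF samples.

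Genes of ETV and EGR transcription factors, known targets of ERK, had some of the largest ratios. All 3 genes of the ETV (PEA3) factors were lower, with a median log2 ratio of -4.83. *Etv4* went from 15.3 FPKM to 1.37 and *Etv1* from 1.67 to 0.0586. *Etv5* was at 22.8 and 0.735, and 30.3% of its words occur in other genes. In the EGR list 5 of 6 genes were lower (median log2 ratio -5.58). With a pseudocount of 1 FPKM the medians were -2.78 for the ETV list and -2.07 for the EGR list. *Egr1*, a zinc finger factor gene, was at 76.1 FPKM with FGF, 0.406 with FGF + PD and 222 with FGF + LY. *Egr2*, on chromosome 10 from 67534469 to 67542188, went from 3.81 to 0.0823 FPKM, and *Egr3* from 3.20 to 0.0651. *Arc*, a synaptic gene used as an early response marker, went from 8.52 to 0.135. The EGR corepressor genes differed from each other, *Nab2* at 51.9 and 19.5 FPKM (log2 ratio -1.41) and *Nab1* at 19.2 and 23.6 (0.30), and 37.9% of the words of *Nab2* occur in other genes. Values under 1 FPKM leave the exact folds of *Etv1*, *Etv5*, *Egr1*, *Egr2*, *Egr3* and *Arc* uncertain.

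Promoter sequences show how the same element stood before genes that were lowered and genes that were not. The CArG box, the site of SRF, was searched on both strands in the 250 bases before each RefSeq transcript start, together with GGAAGT, a core of ETS factor sites. Of 52 early response and feedback genes above 1 FPKM, 40 had such a window. These were 18 of 29 lowered genes, 7 of 7 raised genes and 15 of 16 genes within 1.5-fold. Lowered genes without a window, among them *Egr1*, *Egr3*, *Arc*, *Etv4*, *Dusp4* and *Fosl1*, could not be searched, so the counts below do not cover them. A CArG box was present in 1.47% of all 32851 windows, at 1.62% of all 27025 genes and at 4 of these 40 genes, namely *Dusp5*, *Egr2*, *Srf* and *Zfp36*. GGAAGT was present in 19.7% of all windows. By gene it was found at 22.2% of all genes and at 6 of 18 lowered genes of the 40 (*Dusp5*, *Etv5*, *Fos*, *Junb*, *Maff* and *Spred2*), 0 of 7 raised genes and 0 of 15 genes within 1.5-fold. The 4 windows with a CArG box are shown 5′ to 3′ on the gene's strand, from RefSeq on GRCm38.p6, with CArG boxes and GGAAGT (either strand) in capitals. They lie at chr19:53528895-53529144 (*Dusp5*, plus strand), chr10:67537619-67537868 (*Egr2*, plus strand, 1 of 5 windows of the gene), chr17:46556163-46556412 (*Srf*, minus strand) and chr7:28379229-28379478 (*Zfp36*, minus strand).
Dusp5: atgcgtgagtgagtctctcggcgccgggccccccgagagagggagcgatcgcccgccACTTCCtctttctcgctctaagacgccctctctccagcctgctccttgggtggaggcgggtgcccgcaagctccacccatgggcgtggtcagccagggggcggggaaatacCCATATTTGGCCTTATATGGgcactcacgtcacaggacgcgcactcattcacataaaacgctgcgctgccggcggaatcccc
Egr2: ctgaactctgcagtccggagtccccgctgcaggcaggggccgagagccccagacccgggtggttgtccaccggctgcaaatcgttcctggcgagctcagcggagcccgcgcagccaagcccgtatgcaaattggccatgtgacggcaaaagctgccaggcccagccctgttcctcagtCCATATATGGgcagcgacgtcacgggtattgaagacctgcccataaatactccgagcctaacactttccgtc
Srf: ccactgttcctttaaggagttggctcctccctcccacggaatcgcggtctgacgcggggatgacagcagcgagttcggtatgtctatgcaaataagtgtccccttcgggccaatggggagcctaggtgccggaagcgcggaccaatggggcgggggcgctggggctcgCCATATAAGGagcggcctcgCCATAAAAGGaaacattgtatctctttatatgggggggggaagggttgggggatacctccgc
Zfp36: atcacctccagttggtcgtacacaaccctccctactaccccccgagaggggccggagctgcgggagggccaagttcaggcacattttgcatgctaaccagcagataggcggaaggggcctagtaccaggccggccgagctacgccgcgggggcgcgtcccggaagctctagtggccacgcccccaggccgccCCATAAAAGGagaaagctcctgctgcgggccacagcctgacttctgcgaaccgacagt
In *Dusp5* the 2 CArG boxes lie side by side, and GGAAGT stands upstream of them as its reverse complement. *Dusp5* and *Egr2* were lower with PD, at log2 ratios of -2.54 and -5.53. *Srf*, with 2 boxes, and *Zfp36*, with 1, were within 1.5-fold, at 29.7 and 28.4 FPKM and at 19.8 and 23.2 FPKM. A match describes the letters only, and occupancy by any factor was not measured.

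AP-1 subunit genes moved in opposite directions. AP-1 is a dimer of FOS, JUN, ATF or MAF family proteins. Of 9 genes, 4 were lower and 4 higher with PD (median log2 ratio 0.08). *Fos* went from 5.01 FPKM to 0.413, *Fosl1* (Fra-1) from 29.1 to 6.26, *Maff* from 25.2 to 8.02 and *Junb* from 35.5 to 14.4. Of the words of *Fosl1*, 54.5% occur in other genes. These lowered genes lie beside relatives that were higher. *Fosl2* (Fra-2) went from 43.8 to 118, *Jun* from 78.0 to 124, and *Atf3*, a stress-responsive member, from 7.77 to 45.8. *Jund*, named after its value was seen, went from 44.7 to 119, and 50.1% of its words occur in other genes. *Mafk*, at 34.7 and 36.8, was within 1.5-fold, and *Fosb*, at 0.834 and 0.502, was below the FPKM minimum. *Fosl2*, *Jund* and *Atf3* stood at 47.0, 47.0 and 7.32 FPKM with FGF + LY, each within 1.5-fold of FGF alone, whereas *Jun* stood at 137, above its level with PD.

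Other early genes were mixed. Of 13 genes of the NR4A, KLF and IER families, 3 were lower and 3 higher (median log2 ratio 0.23). *Ier2* went from 49.2 FPKM to 13.7, *Klf10*, a TGF-beta-inducible factor gene, from 22.2 to 9.72, and *Ier5l* from 14.8 to 8.56. *Nr4a3*, an orphan nuclear receptor gene, went from 0.564 to 4.00 and *Klf2* from 22.1 to 47.2. With FGF + LY over FGF alone, 0 of the 13 genes were lower and 5 higher, among them *Nr4a3* (log2 ratio 2.04) and *Klf2* (0.92). *Nr4a1* passed 1.5-fold by little, at 18.4 and 27.8 FPKM (log2 ratio 0.59), and was named for that after its value was seen. In the family of mRNA decay factors, *Zfp36l2* was 6.61-fold lower, from 105 FPKM to 16.0, while *Zfp36* and *Zfp36l1* had log2 ratios of 0.23 and 0.49. For *Zfp36l1*, 60.0% of the words occur in other genes. With PD present, several of the raised genes had been higher still at 1 hr. *Atf3* was at 157 FPKM in 1 hr FGF + PD and 45.8 in 4 hr FGF + PD, *Jun* at 245 and 124, *Nr4a1* at 194 and 27.8, and *Dusp1* at 120 and 91.0. The lowered genes *Dusp6* and *Egr1* were already low at 1 hr with PD, at 2.46 and 1.56 FPKM. The matching 1 hr FGF condition without inhibitor was not used here.

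The phosphatases that act mainly on JNK and p38 were higher or within 1.5-fold. Of 5 genes, 4 were higher with PD and 0 were lower (median log2 ratio 1.08). *Dusp8*, a phosphatase gene of JNK and p38, was 4.70-fold higher, from 6.13 FPKM to 28.8. *Dusp10* went from 9.09 to 23.8, *Dusp16* from 5.42 to 11.4 and *Dusp1* (MKP-1) from 56.9 to 91.0. *Dusp14* was at 13.2 and 16.9, within 1.5-fold. With FGF + LY, *Dusp8*, *Dusp10* and *Dusp16* stood at 3.34, 10.7 and 5.38 FPKM, below the FGF + PD level in every case.

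**Figure D3:**
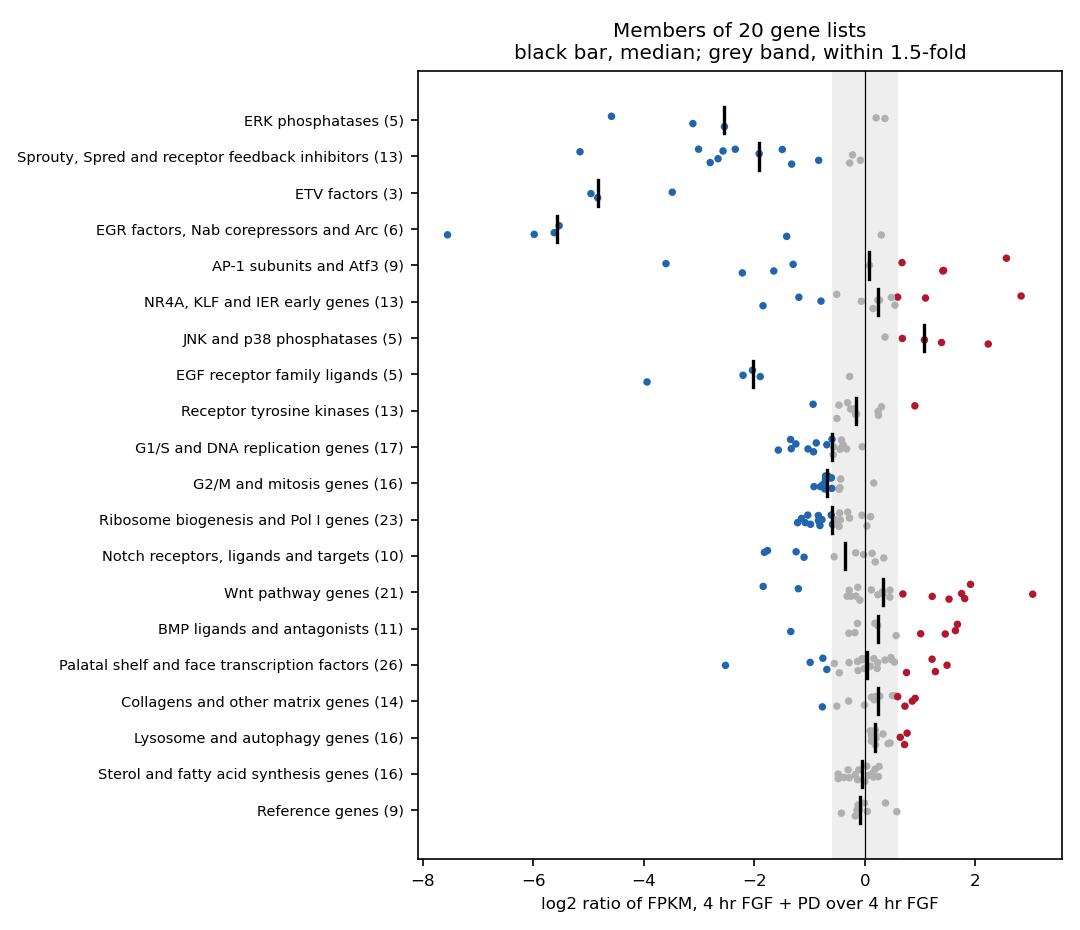
Log2 ratio of FPKM, 4 hr FGF + PD over 4 hr FGF, on the x axis for the members of 20 gene lists (number above 1 FPKM in parentheses), 1 point per gene, blue if lower and red if higher by 1.5-fold or more. Black bars are medians: -4.83 for the ETV factors, -2.54 for ERK phosphatases, 1.08 for JNK and p38 phosphatases and -0.10 for the reference genes.

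Ligand genes of the EGF receptor family fell in most cases, and most of the listed receptor genes were within 1.5-fold. Ligands of this family were lower in 4 of 5 cases (median log2 ratio -2.03). *Hbegf* went from 121 FPKM to 32.6, *Ereg* (epiregulin) from 11.2 to 2.72, *Tgfa* from 2.93 to 0.636 and *Areg* (amphiregulin) from 2.18 to 0.142, whereas *Nrg1*, whose product binds other receptors of the family, was at 15 and 12.4. Of 9 FGF and PDGF ligand genes 2 were lower and 1 higher (median 0.15). *Fgf7*, a ligand of the epithelial FGF receptor, went from 50.0 to 23.7, and *Fgf18*, a ligand known in skeletal growth, from 3.37 to 7.47. *Fgf2* went from 13 to 2.09, but it is among the entries at which both ligand-alone conditions lay above every inhibitor condition. *Fgf10*, *Fgf21* and *Pdgfc* had log2 ratios of 0.13, 0.32 and 0.47. Of 13 listed receptor tyrosine kinase genes only *Pdgfrb*, at 83.2 and 43.4 FPKM, was lower and only *Ddr1*, a collagen receptor at 44.3 and 82.9, was higher (median -0.17). *Mertk* and *Epha2*, receptor kinase genes outside this list, were also lower and are described below. *Egfr* was at 22.8 and 16.0 FPKM, *Erbb2* at 15.2 and 13.7 and *Met* at 7.97 and 6.41.

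Among modifiers of MEK-ERK signaling that act as kinases or exchange factors, 5 of 9 were lower and 1 was higher (median log2 ratio -0.80). *Sgk1*, a kinase activated through PI3K, went from 47.2 FPKM to 15.9 and stood at 98.6 with FGF + LY. *Plk3* went from 14 to 4.87, *Vav3*, an exchange factor of small GTPases, from 5.17 to 1.18, *Trib1* from 11.2 to 6.03 and *Stk40* from 37.4 to 21.5. *Bcar3* and *Prkca* were within 1.5-fold, at log2 ratios of -0.49 and -0.27. *Map3k8* (Tpl2), a kinase able to activate MEK, went the other way, from 0.786 to 1.93 FPKM. *Trib1*, *Stk40*, *Vav3*, *Sgk1*, *Bcar3* and *Prkca* were put forward by the study as candidate modifiers from its 4 hr data, so the direction of this list is not independent evidence. RGS proteins, which shut off G protein signals, gave 2 lower and 2 higher of 7 (median -0.18). *Rgs16* went from 20.4 to 3.35 FPKM and *Rgs12* from 32.7 to 21.3, while *Rgs4*, on chromosome 1 from 169741477 to 169747642, was 11-fold higher, from 5.99 to 66.1. At *Rgs4* both ligand-alone conditions lay below every inhibitor condition, although 10.5 FPKM with FGF + LY was far from the PD level. *Rgs5* went from 0.793 to 1.49, *Rgs2* was at 2.58 and 2.27, and *Rgs17* at 14.2 and 11.1.

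Genes of cell growth and division fell at many members. *Myc*, which drives ribosome production and growth, went from 74.9 FPKM to 14.6 and was 5.15-fold lower. In the Myc network 2 of 9 genes were lower and 2 higher (median log2 ratio 0.05). The Myc antagonist genes *Mxd1* and *Mxd4* were higher, at 2.60 and 5.11 FPKM and at 45.5 and 81.4, *Mxd3* was lower, at 2.25 and 1.15, and *Max* was at 44.7 and 46.3. *Ccnd1* (cyclin D1), whose entry is shared with the microRNA gene *Mir3962*, went from 222 FPKM to 51.6, 4.31-fold lower, with 105 in FGF + LY. *Ccnd2* was 1.59-fold lower, at 296 and 186, and *Ccnd3* was at 113 and 130, so 1 of the 2 D cyclin genes with an entry of their own was lower and 0 were higher (median -0.23). Of 7 CDK inhibitor genes 0 were lower and 2 higher (median 0.40), *Cdkn1b* (p27) from 10.8 to 22.1 FPKM and *Cdkn2a* from 66.8 to 101. *Cdkn1a* (p21) was at 423 and 631, just under the size rule.

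Of 17 genes of G1/S and DNA replication, 9 were lower and 0 higher (median log2 ratio -0.60). *Cdc6* and *Cdt1*, which license replication origins, went from 1.6 FPKM to 0.542 and from 7.54 to 2.99. *Ccne2* (cyclin E2) was 2.38-fold lower and *Uhrf1*, of whose words 24.2% occur in other genes, 2.54-fold, while *E2f1* was at 11 and 10.6. *Rrm2*, a subunit of ribonucleotide reductase, went from 42.8 to 21. Of 16 genes of G2/M and mitosis 12 were lower and 0 higher (median -0.69), within a narrow range. *Aurkb* went from 7.53 FPKM to 3.98, *Ccna2* from 18.7 to 10.7, *Mki67* from 5.91 to 3.50 and *Birc5* from 21.3 to 12.5, and the smallest ratio was that of *Ccnb2*, at 8.0 and 8.93. With FGF + LY, *Ccna2* stood at 7.41 and *Aurkb* at 2.96 FPKM. The list medians of FGF + PD over FGF + LY were positive, 0.19 for G1/S and 0.55 for G2/M. Ribosome biogenesis genes were lower in 12 of 23 cases and higher in 0 (median -0.59), among them *Nolc1* (2.33-fold), *Polr1b* (2.21-fold) and *Polr1a* (2.11-fold), subunits or cofactors of RNA polymerase I, and *Rrs1* (2.05-fold). The gene of the nucleolar methylase fibrillarin, *Fbl*, was at 9.78 and 10.0 FPKM. Cytosolic ribosomal protein genes gave 4 lower and 1 higher of 19 (median -0.19). For *Rpl5*, *Rpl3*, *Rps6* and *Rplp0*, the 4 lower ones, 37.6% to 50.4% of the words occur in other genes, as do 23.7% of the words of *Rpl10a*, the higher one, so reads of these genes and of their pseudogenes may be mixed.

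Genes of cell survival moved in both directions, with a large difference at *Bcl2*. Of 12 genes of the BCL2 family 2 were lower and 2 higher (median log2 ratio -0.19). *Bcl2*, which protects from apoptosis, was 8.59-fold lower, from 2.60 FPKM to 0.303, and *Bid*, which promotes it, went from 19.4 to 10.2. The promoters of apoptosis *Pmaip1* (Noxa) and *Bok* went from 102 to 228 and from 14.6 to 31.4. *Mcl1* was at 94.4 and 66.2. *Bcl2l11* (Bim), named after its value was seen because its protein is a known ERK substrate, was at 3.82 with FGF, 2.96 with FGF + PD and 11.6 with FGF + LY. FOXO factors and their targets gave 2 lower and 2 higher of 13 (median 0.19), *Foxo1* at 4.60 and 2.18 FPKM, *Trib2* at 12.6 and 6.54, *Foxo4* at 5.77 and 10.7 and *Bcl6* at 6.71 and 11.4.

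Genes of chemokines, cytokines and prostaglandin synthesis fell at several members. Of 9 chemokine and cytokine genes 5 were lower and 1 higher (median log2 ratio -1.02). *Ccl2*, a monocyte chemokine, went from 56.2 FPKM to 6.29, *Csf1*, a macrophage growth factor, from 103 to 31.8, *Lif* from 14.3 to 6.09 and *Cxcl12* from 34.9 to 17.3. *Ccl7* went from 13.2 to 2.31 and is among the entries at which both ligand-alone conditions lay above every inhibitor condition. Of 8 prostaglandin genes 4 were lower and 1 higher (median -0.43), with *Ptgs2*, the inducible cyclooxygenase, at 149 and 92.3 FPKM, *Ptges* at 7.04 and 4.06, *Pla2g4a* at 44.5 and 28.4, *Ptgis* at 4.46 and 2.90, and the receptor gene *Ptgfr* at 0.597 and 2.58. Of 6 interferon-stimulated genes 0 were lower and 0 higher (median -0.04). Of 6 plasminogen activation genes 2 were lower and 0 higher (median -0.13), the inhibitor gene *Serpinb2* at 3.22 and 0.124 FPKM and the activator gene *Plat* at 33.1 and 20.3. The urokinase gene *Plau*, at 76.5 and 110, was within 1.5-fold. Matrix metalloproteinases, ADAMTS proteases and TIMPs gave 2 lower and 5 higher of 11 (median 0.36). *Timp1* was at 290 FPKM with FGF, 145 with FGF + PD and 1298 with FGF + LY, and *Timp3* at 225, 435 and 276. *Adamts1* went from 58.0 to 118 and *Mmp11* from 17.7 to 35.8.

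Wnt pathway genes leaned toward higher values with PD. Of 21 genes 7 were higher and 2 lower (median log2 ratio 0.32). *Rspo2*, which encodes an R-spondin that amplifies Wnt signals and lies on chromosome 15 from 43020788 to 43171594, was 8.21-fold higher, from 8.47 FPKM to 69.5, and stood at 5.03 with FGF + LY. *Axin2*, a feedback target of Wnt/beta-catenin signaling, went from 0.874 to 3.29, *Wnt11* from 1.35 to 4.70 and *Wnt9a* from 24.0 to 80.7. With FGF + LY over FGF alone, 5 of 20 genes of the list were lower and 4 higher, among the latter *Axin2* (log2 ratio 1.49). *Rnf43* and *Nkd1*, which like *Axin2* encode feedback inhibitors of the pathway, were 2.87-fold and 2.33-fold higher, and were named after their values were seen. *Wnt16*, outside the list, was among the 15 largest rises at 5 FPKM or more, from 17.1 FPKM to 105. The receptor gene *Fzd4* was lower, from 3.05 to 0.852, as was *Rspo3*, named after its value was seen, from 4.43 to 1.92. *Wnt5a* was at 97.6 and 91.7 FPKM.

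Several antagonists of BMP were higher with PD. Of 11 genes 4 were higher and 1 lower (median log2 ratio 0.23). *Grem1* (gremlin) went from 212 FPKM to 660, *Nog* (noggin) from 5.97 to 16.4 and *Chrdl1* from 3.31 to 6.67, and *Bmp3*, a ligand known to oppose other BMPs, from 2.25 to 7.2. The ligand gene *Gdf6* was at 3.23 and 2.95. BMP targets gave 2 lower and 2 higher of 9 (median 0.03), with *Id1* at 11.2 and 6.09 FPKM, *Smad7* at 11.8 and 6.72, *Id2* at 8.01 and 18.1, *Smad6* at 2.66 and 4.86, and *Id3* at 19.9 and 23.5. TGF-beta genes gave 2 lower and 1 higher of 11 (median -0.17), with the activin gene *Inhba* at 273 and 145 FPKM, *Tgfb1* at 22.6 and 14.7 and *Tgfb2* at 28.2 and 51.6. In the hedgehog list 1 of 7 was lower and 2 were higher (median -0.05). The receptor and target gene *Ptch1* went from 1.95 to 1.09 FPKM, and the coreceptor genes *Gas1* and *Cdon* from 9.44 to 16.6 and from 8.05 to 13.6. Notch pathway genes were lower in 4 of 10 cases and higher in 0 (median -0.36), with the receptor gene *Notch1* at 7.97 and 3.36 FPKM and the target genes *Hes1* at 36.9 and 17.2, *Heyl* at 2.51 and 0.741 and *Nrarp* at 1.09 and 0.310. Of the words of *Nrarp*, 78.2% occur in other genes. Retinoid genes gave 2 lower and 2 higher of 9 (median 0.13). *Dhrs3*, a retinaldehyde reductase gene, was 7.42-fold higher, from 1.71 FPKM to 12.7, the degrading enzyme gene *Cyp26b1* went from 0.802 to 1.54, and the receptor gene *Rara* from 15.6 to 8.82.

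Transcription factors of the palatal shelves and face mostly kept their level. Of 26 genes 18 were within 1.5-fold, 4 were lower and 4 higher (median log2 ratio 0.04), and *Barx1*, at 54.6 and 54.2 FPKM, had the smallest ratio. *Osr1* went from 31.8 FPKM to 76.9, *Shox2*, a factor of the anterior palate, from 12 to 27.9, and *Mef2c* from 1.90 to 5.33. *Meox2* went from 1.15 to 0.20 and *Foxc2* from 5.29 to 2.66. Of 5 Twist, Snail and Zeb genes 2 were lower and 0 higher (median -0.45), *Twist2* at 8.30 and 2.5 FPKM (46.0% of its words occur in other genes) and *Snai1* at 19.1 and 12.5, and *Twist1* was at 60.2 and 55.8.

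Skeletal genes changed at single members. Of 6 cartilage genes 2 were lower and 1 higher (median log2 ratio -0.49). *Sox9*, the master factor of chondrocytes, went from 12.3 FPKM to 4.12 and its target *Col2a1* from 80.3 to 50.8, while *Sox6*, its partner, went from 1.25 to 3.44. *Sox9* and *Col2a1* were also low with FGF + LY, at 7.55 and 38.9. Of 8 osteoblast genes 2 were lower and 2 higher (median 0.04). *Spp1* (osteopontin) was 9.46-fold lower, from 183 FPKM to 19.3, and *Dmp1*, a mineralization protein gene, went from 2.11 to 0.0307. *Postn* (periostin) went from 624 to 1364 and *Ogn* from 233 to 429, and at both genes the ligand-alone conditions lay below every inhibitor condition. *Col1a2* was at 1919 and 1943 FPKM. *Col1a1* was listed at 0 with FGF alone and with PDGF alone and at 4262 with FGF + PD, so no ratio was taken.

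Of 14 collagen and matrix genes 4 were higher and 1 lower (median log2 ratio 0.23), with the crosslinking enzyme gene *Loxl1* at 78.4 and 147 FPKM, *Lum* at 20.7 and 34.2, *Dcn* at 38.2 and 57.6 and the elastin gene *Eln* at 48.3 and 28.3. *Col6a2*, at 57.0 and 103, lay below every inhibitor condition in both ligand-alone conditions. Contractile genes regulated by SRF gave 0 lower and 4 higher of 13 (median 0.09), with *Flna* at 353 and 589 FPKM, *Tpm1* at 1693 and 2580, *Cnn1* at 117 and 177 and *Des* at 1.08 and 3.47. YAP-TEAD targets gave 3 lower and 1 higher of 9 (median -0.30), *Ankrd1* at 55.1 and 22.4 FPKM, *Ccn2* at 1486 and 914, *Ccn1* at 591 and 380, and *Amotl2* at 80.0 and 193. Hyaluronan genes gave 0 lower and 2 higher of 6 (median -0.08), *Has1* at 0.298 and 1.88 and *Hyal2* at 17.1 and 26.3 FPKM. In the guidance families, Eph receptors and ephrins gave 2 lower and 3 higher of 13 (median -0.27), with the receptor gene *Epha2* at 87.4 and 41.9 and the ligand gene *Efna1* at 6.32 and 15.2 FPKM. Semaphorins, plexins and neuropilins gave 3 lower and 1 higher of 11 (median -0.00). *Sema7a*, a membrane-anchored semaphorin gene, was at 13.6 FPKM with FGF, 0.808 with FGF + PD and 65.8 with FGF + LY. *Sema3e* went from 15.5 to 6.03, with both ligand-alone values above every inhibitor value, and *Sema3f* from 16.0 to 25.1.

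Genes of sterol synthesis kept their level with PD. None of 16 genes of sterol and fatty acid synthesis was lower or higher with PD (median log2 ratio -0.05). *Hmgcs1*, of the sterol pathway, stood at 259 FPKM without PD and 259 with it, against 85.6 with FGF + LY, and 14 of the 16 genes were 1.5-fold or more lower with LY than with FGF alone. ATF4 amino acid genes gave 0 lower and 1 higher of 16 (median 0.04), lysosome and autophagy genes 0 lower and 3 higher of 16 (median 0.19), with *Lamp2* at 165 and 280 FPKM, *Neu1* at 8.04 and 13.2 and *Tfeb* at 2.44 and 3.81. Glycolysis genes were lower in 5 of 14 cases and higher in 0 (median -0.51). The glucose transporter gene *Slc2a3* went from 7.44 FPKM to 1.91, *Pfkfb3* from 10.3 to 5.94 and *Hk2* from 11.6 to 7.25. The other lower members, *Slc16a3* at 1.71 and 0.703 and *Eno1* at 119 and 73.7, had both ligand-alone values above every inhibitor value. Of 10 clock genes 2 were lower and 1 higher (median -0.17), *Bhlhe40* at 35.5 and 6.84 FPKM, *Arntl* at 23.6 and 11.6 and *Clock* at 8.67 and 13.2. Of 9 reference genes 0 were lower and 0 higher (median -0.10), with *Actb* at 1884 and 1708 FPKM, *Hprt* at 54.9 and 71.1 and *B2m* at 648 and 645.

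Outside the lists, the genes with the largest ratios at 5 FPKM or more were of varied function. *Hmga2*, a chromatin protein gene of embryonic mesenchyme on chromosome 10 from 120361268 to 120476469, was 10.2-fold lower, from 257 FPKM to 25.2, and stood at 222 with FGF + LY. *Klhdc8a* went from 108 to 11.1 and *Mertk*, a receptor kinase gene of phagocytosis, from 9.40 to 0.961. Among the rises, *Tgfbi*, a TGF-beta-induced matrix protein gene on chromosome 13 from 56609586 to 56639359, was 7.79-fold higher, from 21.2 FPKM to 165, with 19.8 in FGF + LY. *Ahrr*, the repressor of the aryl hydrocarbon receptor, went from 0.692 to 7.96, *Mrgprf* from 9.21 to 63.7, *Artn*, a ligand gene of the RET receptor complex, from 0.756 to 9.23, and *Serpinb1a* from 1.61 to 10.1. The 4 largest rises among named genes at 5 FPKM or more, *Eno1b*, *Gbp2b*, *Serpina3n* and *Grik1*, were below 1 FPKM in both ligand-alone conditions and below every inhibitor condition. *Eno1b* and *Eno1* share sequence (89.2% and 28.5% of their words occur in other genes), and in the ligand-alone conditions *Eno1b* was low where *Eno1* was high. *Apln*, *Sprr1a* and *Sprr3*, among the 6 largest falls at 5 FPKM or more, had both ligand-alone values above every inhibitor value, and with FGF + LY they stood at 0.883, 0.596 and 1.43 FPKM.

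**Figure D4:**
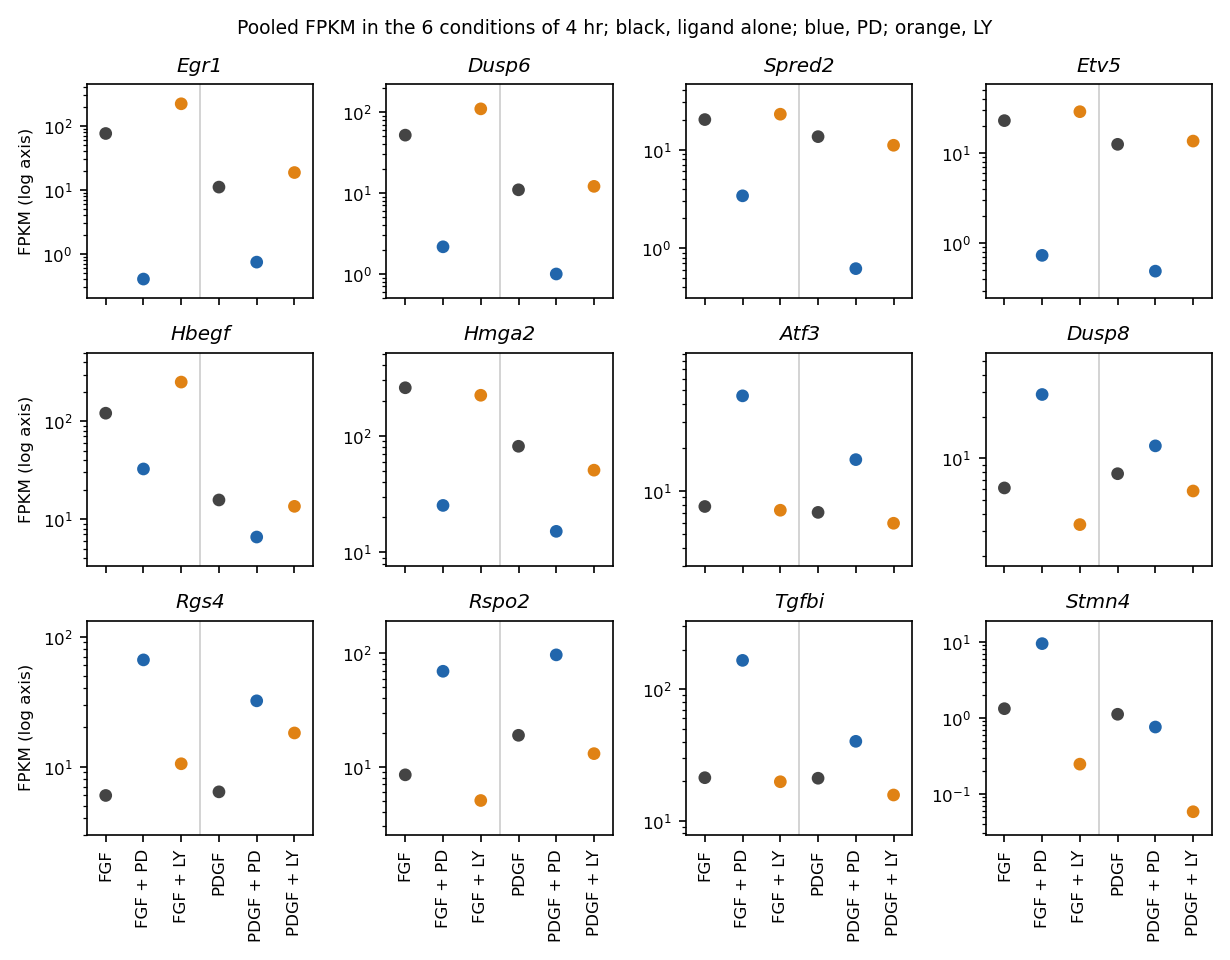
Pooled FPKM (log axis, own range in each panel) of 12 genes in the 6 conditions of 4 hr on the x axis, black for ligand alone, blue for PD and orange for LY, 1 value per condition with no error. *Egr1*, *Dusp6*, *Etv5*, *Hbegf* and *Hmga2* were lowest with PD for either ligand, and *Atf3*, *Dusp8*, *Rgs4*, *Rspo2* and *Tgfbi* highest with PD for either ligand, whereas *Stmn4* was highest with FGF + PD alone.

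PD had also been given to PDGF-treated cells, which allows the ratios to be set beside those of another ligand without a shared sample. With PDGFA at 30 ng/mL, 1120 of 11854 entries were lower with PD (9.45%) and 1410 were higher (11.9%). Among 11461 entries above 1 FPKM in each comparison, 611 were lower with PD in both, which is 48.4% of the 1263 lower with FGF and 55.9% of the 1093 lower with PDGF. For higher entries the shared number was 557, 43.2% of 1290 with FGF and 47.4% of 1174 with PDGF. Lower with FGF but higher with PDGF were 17 entries, and higher with FGF but lower with PDGF were 12. Without the entries at which the ligand-alone conditions lay apart, 530 lower entries (44.8% of those with FGF) and 480 higher entries (39.6%) were shared. Both ligand-alone conditions share whatever sets them apart from the inhibitor conditions, and the part of that in the overlap was not tested.

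The ratio with PD was larger with FGF for some genes and with PDGF for others. *Egr1* had a log2 ratio of -7.55 with FGF and -3.89 with PDGF, *Arc* of -5.98 and -2.77, *Sema7a* of -4.08 and -0.82, and *Tcim* of -2.96 and 0.30. *Errfi1* (-2.80 and -0.63) and *Spp1* (-3.24 and -0.71) had the same order. In these genes the level with PDGF alone was already below that with FGF alone, 11.1 FPKM for *Egr1*, 0.686 for *Arc*, 1.17 for *Sema7a*, 1.56 for *Tcim*, 6.64 for *Errfi1* and 25.6 for *Spp1*. In the other direction, *Spred2* had a log2 ratio of -2.57 with FGF and -4.44 with PDGF, and *Ccn2* of -0.70 and -2.53. Among the rises, *Tgfbi* had 2.96 with FGF and 0.93 with PDGF. *Stmn4*, a stathmin family gene, had 2.85 and -0.56, and *Inhbb*, an activin subunit gene, 1.21 and -0.82. The JNK and p38 phosphatases had a median of 1.08 with FGF and 0.30 with PDGF, and *Dusp1* had 0.68 and -0.85. *Klf2* likewise had 1.10 and -0.62, and *Nr4a1* 0.59 and -1.09. The differences between ligands were not tested, since each is a difference of pooled values.

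**Figure D5:**
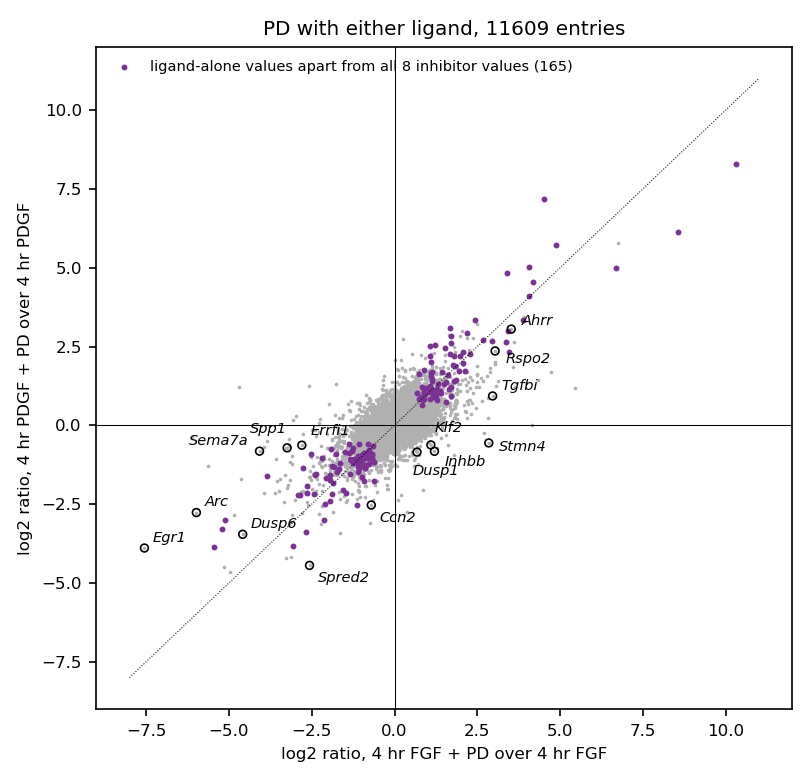
Log2 ratio of FPKM with PD in FGF-treated (x axis) and in PDGF-treated cells (y axis) at 4 hr for 11609 entries, 1 point per entry, with the dotted line at equal ratios. Purple points are 165 entries whose ligand-alone values lay apart from all 8 inhibitor values, 1 entry lies below the axis range, and *Stmn4*, *Inhbb*, *Klf2* and *Dusp1* lie below 0 with PDGF and above 0 with FGF.

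At the FPKM minimum, *Tmem171*, at 1.00 with FGF and 0.297 with FGF + PD, was the nearest entry left out. Another 17 entries were listed at 0 in 1 condition, 15 of them with FGF + PD and 2 with FGF, and 10 of them were small RNAs. They are among the 11642 entries kept but have no ratio, so they enter no count of lower or higher entries.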

How the data were processed

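RNA from MEPMs was sequenced by the study, and reads were processed with CASAVA, TopHat and Cuffdiff on mm10, per the submitters' processing notes and the study's methods (versions not given in the sources used here). The deposited table gives 1 FPKM per RefSeq entry and condition, which the authors estimated from the replicates of a condition together, so the values carry no error. Of the table's conditions 10 were used, 3 columns belong to another series and were not used, and an unnamed column of stray text was left out. RefSeq accessions were matched to symbols for 22749 entries, 294 had no symbol and 243 had several.

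Entries above 1 FPKM in 4 hr FGF or 4 hr FGF + PD were kept, and the plain ratio of FPKM was taken with no pseudocount. With 1 value per condition no test was run, and a ratio of 1.5-fold or more in either direction was called. The 50 gene lists and 6 marker lists (652 genes, 10 without an entry of their own) and the members were chosen with earlier results of these data known. Genes were named by rule: the 15 largest falls and rises at 5 FPKM or more; in each list up to 5 with the largest ratios and the 1 with the smallest, or all of a list of 5 or fewer; genes that the study names; entries nearest the FPKM minimum; entries at 0 in 1 condition; and the 5 with the largest difference between ligands in each direction. Any other gene is said to have been named after its value was seen, or completes a family. To find reads that could belong to several genes, each transcript was cut into words of 31 bases, and the percent found in GENCODE transcripts of other genes was taken. The alternatives were pseudocounts of 0.1 and 1, other FPKM minimums and fold sizes, rescaling by the median ratio, leaving out small RNAs, and FGF + LY as reference; leaving out entries at which the ligand-alone conditions lay apart was added after seeing the data. The calculation was tested on simulated data. Python 3.11.15, pandas 2.3.3, NumPy 2.4.6 and matplotlib 3.10.9 were used. Results of some genes are not reported here.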

Additional observations from a re-analysis of the deposited data

Results flagged for a closer look

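Among the genes named in the text and above 1 FPKM in both the FGF and the PDGF comparison, 4 had ratios with PD of 1.5-fold or more in opposite directions. They belong to the 17 and 12 entries called in opposite directions in the whole comparison. The log2 ratio of *Dusp1* was 0.68 with FGF and -0.85 with PDGF, that of *Inhbb* was 1.21 and -0.82, that of *Klf2* was 1.10 and -0.62, and that of *Nr4a1* was 0.59 and -1.09. The difference was not tested, because each condition has a single pooled value.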

How the results depend on the processing

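The counts of 1334 lower and 1342 higher entries followed the fold size and the FPKM minimum. They were 512 and 495 at 2-fold, 2272 and 2227 at 1.3-fold, and 2104 and 2623 with no FPKM minimum. At 5 FPKM or more 790 entries were lower and 899 higher, and of these only the higher count stayed within 1.5 times. Both counts stayed within 1.5 times with pseudocounts of 0.1 (1321 and 1315) and 1 (949 and 1027), after rescaling (1329 and 1350), without small RNAs (1322 and 1315), with FGF + LY as the reference (1341 and 1446) and without the entries at which the ligand-alone conditions lay apart (1248 and 1261). With FGF + LY as the reference, 19 of 56 list medians had the other sign. Of these, 3 had a median of 1.5-fold or more in the main comparison and became 0.19 for G1/S, 0.55 for G2/M and 0.36 for the epithelial markers. Further examples are -0.83 for the AP-1 list, 1.51 for sterol synthesis and 0.12 for glycolysis. The median sign differed for 3 of 54 lists at 5 FPKM or more, for 5 of 56 with no FPKM minimum, and for 0 with either pseudocount or after rescaling. The ETV and EGR medians moved with the treatment of low values, from -4.83 and -5.58 to -4.22 and -3.70 at 5 FPKM or more, -3.48 and -4.37 with a pseudocount of 0.1 and -2.78 and -2.07 with a pseudocount of 1. Of 335 named genes, 44 moved by 1.5-fold or more with a pseudocount of 1 and 11 with 0.1, and 0 turned direction among those called. No paired analysis was possible because the deposited columns carry no replicate, and leaving out replicates was not run for the same reason. The number of reads behind a value is unknown, and ratios of genes near 1 FPKM rest on the lowest values.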
